A study of Mus musculus with 18 samples.

Results

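The cells described here were T cells of the mouse small bowel epithelium, compared between St8sia6 knockout (KO) and heterozygous (het) mice. A cell was taken as a T cell when it held at least 1 molecule (UMI, a unique molecular identifier) of the T cell receptor subunit gene Cd3e, none of the B cell gene Cd79a, none of the epithelial gene Epcam, and under 20% mitochondrial counts. This left 6659 KO and het T cells of 11085 KO and het epithelium cells (60.1%), out of 16985 deposited epithelium cells of all genotypes. Each of 3 runs used 1 KO mouse, 1 het mouse and 2 wild-type (WT) mice, CD45-enriched cells carried a hashtag antibody for their genotype, and the genotypes were pooled before capture with 5′ droplet chemistry. The genotype of a cell was read from the hashtag with the highest median in its barcode ending, and the 9 endings formed 3 libraries of 3 genotypes. KO and het therefore had 3 samples each, 1 mouse per sample, and each WT sample held cells of 2 mice. The sources used here give no age, strain or sex of the mice. These sources also do not say which part of St8sia6 was deleted, in which cells, or whether the mice of a run were littermates. In the gated T cells the Y-linked gene Ddx3y held 354 to 535 UMI per KO sample and 286 to 946 per het sample. Xist, a gene of female cells, held at most 1 UMI in any sample, so the RNA read as male.

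St8sia6 encodes a sialyltransferase that adds sialic acid in alpha-2,8 linkage to sialic acid already present on glycans, and sialic acids at the cell surface are read by inhibitory Siglec receptors on immune cells. Intraepithelial T cells lie between the epithelial cells of the gut. They include gamma-delta T cells, CD8 alpha-beta T cells, cells with only the alpha chain of CD8, and a smaller group of CD4 T cells that can gain CD8 alpha, and most hold granzymes and the residency integrin alpha E.

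The gated cells carried the genes of intraepithelial T cells. Of 8969 gated T cells of all genotypes, 82.31% held a UMI of Cd8a, 84.9% of Gzma and 78.43% of Gzmb at a median of 4889 UMI per cell, against 5.95%, 31.28% and 9.8% of 908 Epcam-high cells without Cd3e at a median of 8302 UMI. The KO and het samples held 708 to 1781 T cells and 3155898 to 9738616 UMI, with medians of 4264 to 5479 UMI per cell. No cell barcode was shared within an epithelium library and 139 were shared between libraries. The hashtag of the ending led in every KO and het epithelium cell, but it held at least 80% of the hashtag molecules (with at least 10 of them) in only 84.2%, 84.2% and 60.4% of KO T cells, against 99.6% to 100% of het T cells. Gm10260, which measured 415 to 664 CPM (counts scaled to a common library total) in WT T cells, was at 4.5 to 9.17 CPM in KO and 6.22 to 9.80 in het (log2 ratio of KO over het -0.18, edgeR adjusted p 0.985).

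St8sia6 itself (chromosome 2, 13651018 to 13794734, GRCm38.p6) was near the detection limit in these cells. KO samples 1, 2 and 3 held 24, 11 and 2 of its UMI, and the het samples held 10, 2 and 7. The groups overlapped, and the log2 ratio of KO over het was 0.91 (SE 0.67, edgeR adjusted p 0.933). A UMI of the gene was found in 0.52% of gated T cells and in 2.31% of Epcam-high cells, so it did not check the genotype here, and KO and het are names taken from the hashtags. Of 58 genes in the file within 5 Mb of St8sia6, 29 could be tested and none passed, 3 with an unadjusted p under 0.05. The lowest p belonged to the interleukin-2 receptor gene Il2ra, with a log2 ratio of 0.63 and an edgeR adjusted p of 0.595.

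Few genes separated KO from het T cells. Of 12038 genes tested on the 9 summed samples with the library as a block, 8 (0.0665%) passed an edgeR quasi-likelihood adjusted p under 0.05, 5 higher (0.0415%) and 3 lower (0.0249%) in KO, and 712 had an unadjusted p under 0.05. The clearest was 4833420G17Rik (chromosome 13, 119462015 to 119486120), a protein-coding gene. It measured 62.5, 58.6 and 60.8 CPM in KO libraries 1 to 3 and 101, 97.3 and 99.5 CPM in het. Every KO sample lay below every het sample, and WT lay with KO at 60.1, 60.1 and 62.4 CPM. The log2 ratio of KO over het was -0.71 (SE 0.06, edgeR adjusted p 0.00115), while that of het over WT was 0.70 (edgeR adjusted p 0.00088) and that of KO over WT was -0.01 (edgeR adjusted p 0.983). Of the same 12038 genes 0.581% passed between het and WT and 0.656% between KO and WT, 2 comparisons that share the WT samples. CPM values here are scaled by edgeR's TMM factors except where stated. In summed cells a change in how many cells hold a gene and in the amount per cell cannot be told apart. The ratio was -0.72 (edgeR adjusted p 0.0624) without library 1 and -0.64 (edgeR adjusted p 0.0812) with an equal mix of T cell subsets, and the gene passed in every other alternative tried.

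The gene for insulin-degrading enzyme, Ide (chromosome 19, 37268743 to 37334544), a protease of insulin and other small peptides, was higher in KO. It measured 111, 116 and 115 CPM in KO and 81.2, 85.4 and 72.0 CPM in het, with 73.6 ± 10.4 CPM in WT (SD, n = 3). All KO samples were above all het samples (log2 0.52, SE 0.08, edgeR adjusted p 0.0433). Leaving out library 1, 2 or 3 gave 0.56, 0.55 and 0.45 with edgeR adjusted p of 0.272, 0.109 and 0.186. Its molecules were spread over many cells, at 379 to 457 T cells per KO sample and 181 to 612 per het sample. Of 6 other genes tested within 0.5 Mb of Ide none passed, and 2 had an unadjusted p under 0.05. These were Btaf1 (log2 0.48, SE 0.09, edgeR adjusted p 0.145), which encodes a regulator of the TATA-binding protein, and the mitotic kinesin gene Kif11 (log2 0.98, edgeR adjusted p 0.836).

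2 predicted genes of low level were also higher in KO. Gm42031 (chromosome 8, 85125923 to 85131814) measured 23.7, 29.6 and 17.5 CPM in KO and 9.07, 9.98 and 8.53 CPM in het. Gm46620, for which the reference table gave no position, measured 18.8, 21.9 and 15.0 CPM in KO and 8.36, 8.04 and 5.37 CPM in het. The groups did not overlap for either gene, and the log2 ratios were 1.36 (SE 0.18) and 1.34 (SE 0.16), with edgeR adjusted p of 0.0284 and 0.0127. Both calls were lost without library 1 or library 2, that of Gm46620 also without library 3 (1.31, edgeR adjusted p 0.0815), and that of Gm42031 also without the 5% of cells with the most UMI (0.93, edgeR adjusted p 0.0987). None of 31 genes tested within 0.5 Mb of Gm42031 passed.

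**Figure D1:**
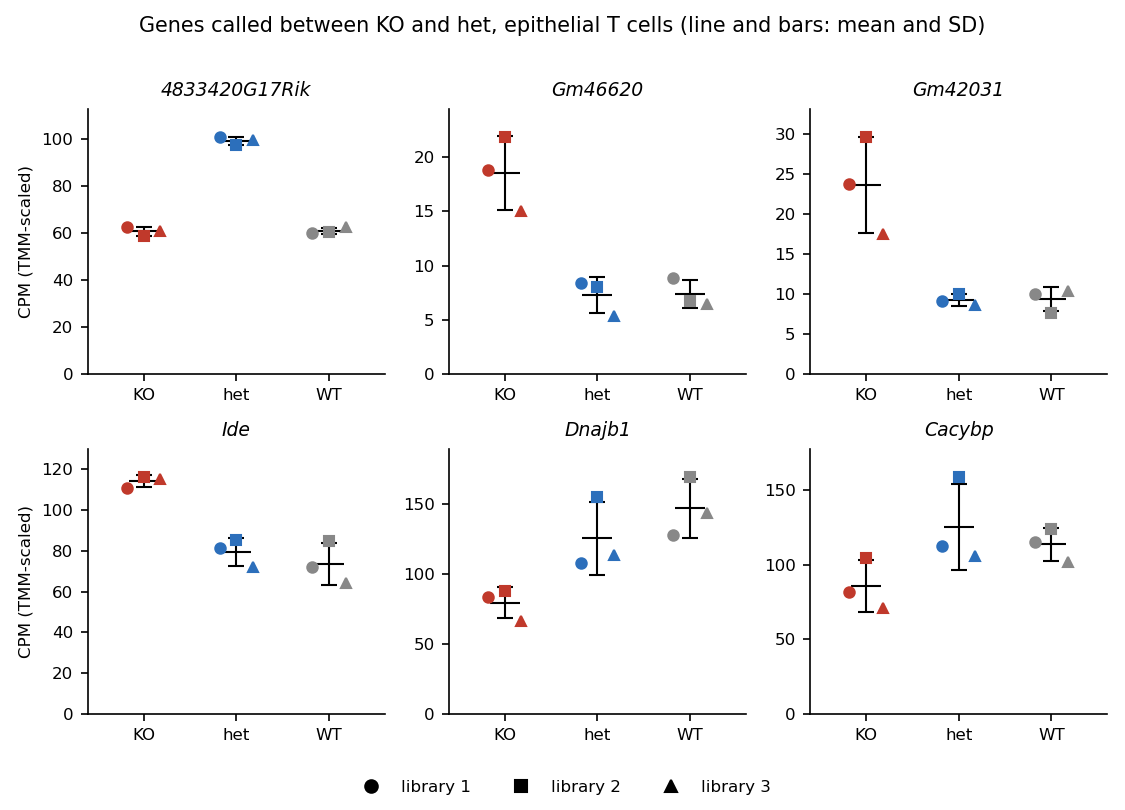
TMM-scaled CPM (vertical axis) of 6 genes that passed the test between KO and het epithelial T cells, for each genotype (horizontal axis). Symbols are the 3 libraries, and the horizontal line and bars are the mean and SD. The KO and het points do not overlap in any panel, and WT lies near KO for 4833420G17Rik and near het for Gm46620, Gm42031 and Ide.

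4833420G17Rik, Gm46620, Gm42031 and Ide were measured in other cells too, from the same barcode endings or from the other tissues. In epithelium cells outside the T cell gate, which share the droplet libraries, the log2 ratios of KO over het were -0.62, 0.77, 0.83 and 0.60. In colon T cells they were -0.40, 1.01, 1.48 and 0.53, and in lamina propria T cells those of 4833420G17Rik, Gm42031 and Ide were -1.28, 2.27 and 0.27. In cells with Epcam, which form part of the cells outside the gate, the ratios were 0.25, 0.18, 0.99 and 0.75, so that of 4833420G17Rik had the opposite sign there (SE 0.36). None of these passed the test outside the epithelial T cells. The labels do not tie the mice of one tissue to those of another, so whether the tissues came from the same mice was not used.

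The other 2 genes higher in KO were receptor segments. Trav13-2, a T cell receptor alpha variable gene, had 20, 54 and 17 UMI in KO and 5, 12 and 1 in het, and the het molecules came from at most 3 cells per sample. It was not called with any 1 library left out. Igkv1-88, an immunoglobulin light chain segment that T cells do not rearrange, had 1032 UMI in KO sample 3, of which 1003 were in 1 cell, and none in KO samples 1 and 2. Without cells holding over 5 UMI of Igha, Igkc, Jchain, Fabp1 or Lyz2, the log2 ratio of Igkv1-88 went from 5.76 to 0.65 (edgeR adjusted p 0.943).

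2 genes of a heat shock and chaperone list were lower in KO than in het, and most of the others on it had ratios below 0. Many proteins of the list fold or refold other proteins, and many of its genes are targets of heat shock factor. Of 20 tested members of a list of 21 heat shock and chaperone genes, 2 passed, both lower in KO, against 0.0249% of all genes tested that passed as lower. Of the 20, 18 had a log2 ratio below 0, 14 had an unadjusted p under 0.05, and the median was -0.34 against 0.00 over all genes. Some other lists also lay mostly on the same side of 0. Of 17 tested immediate early genes 1 was above 0 (median -0.10, 4 with an unadjusted p under 0.05). Of 12 enterocyte genes 0 were above 0 (median -0.20, 3 with an unadjusted p under 0.05), and of 79 ribosomal protein genes 70 were (median 0.04). No gene of these lists passed. Dnajb1, a co-chaperone of HSP70, measured 83.7, 87.8 and 66.7 CPM in KO and 108, 155 and 113 CPM in het (log2 -0.65, SE 0.09, edgeR adjusted p 0.0352). Cacybp, which encodes a protein that binds S100 proteins and ubiquitin ligase parts, measured 81.7, 105 and 71.0 CPM in KO and 113, 159 and 106 CPM in het (log2 -0.55, SE 0.08, edgeR adjusted p 0.0331). In both genes the het sample of library 2 was the highest, and all KO samples lay below all het samples.

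The largest ratios in the list were those of the inducible HSP70 genes, which missed the threshold in all T cells. Hspa1b (chromosome 17, 34956429 to 34959238) measured 3.00, 4.02 and 2.08 CPM in KO and 9.24, 11.4 and 9.48 CPM in het, with no overlap (log2 -1.72, SE 0.27, edgeR adjusted p 0.0505). It measured 42.6 CPM on average in WT. For Hspa1a the value was -1.67 (log2, SE 0.59) at an edgeR adjusted p of 0.801, and Dnaja1, an HSP40 co-chaperone, had -0.62 (SE 0.10, edgeR adjusted p 0.0716). The members of the endoplasmic reticulum, Hspa5 (0.03) and Hsp90b1 (0.01), were the 2 with a log2 ratio above 0.

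The same list was read in 4 gates within the T cells. In CD8 alpha-beta cells 5 of 20 tested members passed as lower in KO, against 0.0623% of all genes: Hspa1b (-2.34), Dnajb1 (-0.80), the HSP110 gene Hsph1 (-0.70), Dnaja1 (-0.67) and Cacybp (-0.60). Of these 5, Hspa1b and Cacybp were not called with any 1 library left out, and DESeq2 called Dnaja1 alone. Even over all gated T cells, Hspa1b rested on 18, 23 and 10 UMI in KO and 52, 112 and 30 in het. Dnaja1 also passed in gamma-delta cells (-0.55), in CD8 alpha-alpha cells (-0.70) and in CD4 cells (-0.77), where Dnajb1 passed as well (-0.84). The call of Dnaja1 in CD8 alpha-alpha cells did not hold with any 1 library left out or with DESeq2, and in CD4 cells neither gene was called without library 1 or without library 2. The list medians were -0.33, -0.35, -0.46 and -0.37 in the gamma-delta, CD8 alpha-beta, CD8 alpha-alpha and CD4 gates, which are parts of the same samples. For the immediate early list the medians in these gates were -0.04, -0.22, -0.23 and 0.08, and none of its genes passed. Dnaja1 in the CD8 alpha-beta gate measured 374, 443 and 343 CPM in KO and 517, 831 and 513 CPM in het (SE 0.11, edgeR adjusted p 0.0376). There, too, het library 2 was the highest sample.

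Ratios below 0 were also seen outside the T cell gate. In epithelium cells outside the gate 19 of 21 members were below 0 with a median of -0.29, and none passed. In lamina propria T cells 14 of 21 were below 0 with a median of -0.12 and 1 passed as higher (Hspb1), and in colon T cells 8 of 21 were below 0 with a median of 0.01. When the same number of cells of each gate was drawn from every sample, 20 of 20 members were below 0 with a median of -0.34, and no gene of any kind passed (594 with an unadjusted p under 0.05). Leaving out library 2 moved the list median to -0.21 and left Dnajb1 at -0.55 (edgeR adjusted p 0.363), with 0 members called. Without library 1 or library 3 the medians were -0.41 and -0.42. Cacybp was not called with any 1 library left out (edgeR adjusted p 0.1 to 0.205), nor Dnajb1 without library 3 (-0.60, edgeR adjusted p 0.204).

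**Figure D2:**
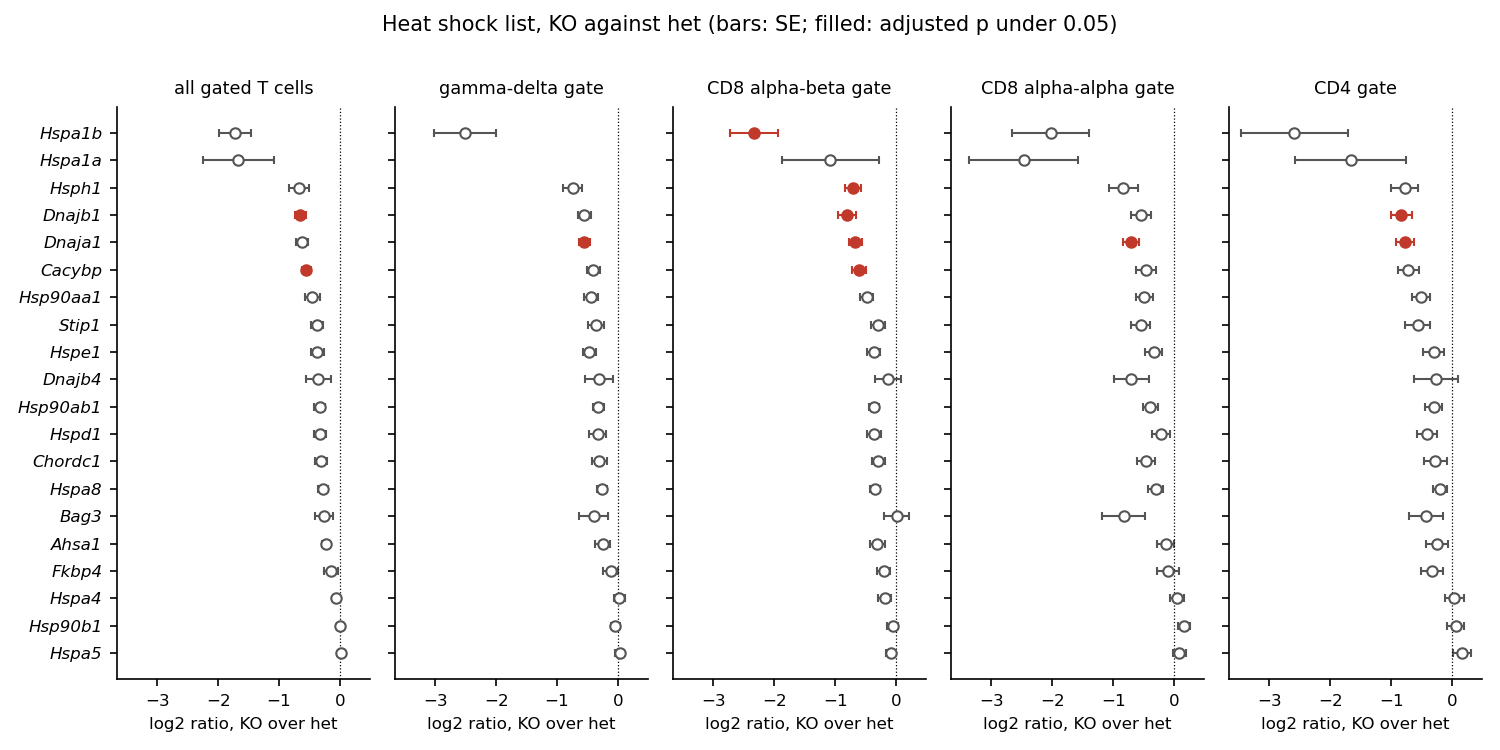
The log2 ratio of KO over het (horizontal axis) of the 20 tested members of the heat shock list (vertical axis), in all gated T cells and in 4 gates. Bars are the SE, and filled red points passed an edgeR adjusted p under 0.05. In all gated T cells 18 of 20 points lie left of 0, and only Dnajb1 and Cacybp are filled.

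Promoters are shown for 3 of the genes lower in KO CD8 alpha-beta cells, since heat shock factor binds inverted repeats of the letters GAA. They are the 250 bases before an annotated start in RefSeq (GRCm38.p6): Hspa1b at chr17:34959239-34959488 on the minus strand, Hsph1 at chr5:149636337-149636586 on the minus strand and Dnaja1 at chr4:40722218-40722467 on the plus strand. Capitals mark a match to GAANNTTC or TTCNNGAA, each of which reads the same on both strands.
Hspa1b: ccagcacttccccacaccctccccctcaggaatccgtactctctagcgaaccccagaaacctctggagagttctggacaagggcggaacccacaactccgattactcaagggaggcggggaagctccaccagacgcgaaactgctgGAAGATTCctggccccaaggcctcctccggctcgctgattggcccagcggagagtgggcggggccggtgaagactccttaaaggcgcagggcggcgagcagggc
Hsph1: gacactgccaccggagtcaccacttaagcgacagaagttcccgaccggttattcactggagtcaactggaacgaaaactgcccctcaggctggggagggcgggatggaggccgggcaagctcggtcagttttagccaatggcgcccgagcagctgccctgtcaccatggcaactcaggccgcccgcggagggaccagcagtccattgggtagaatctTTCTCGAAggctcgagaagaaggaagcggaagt
Dnaja1: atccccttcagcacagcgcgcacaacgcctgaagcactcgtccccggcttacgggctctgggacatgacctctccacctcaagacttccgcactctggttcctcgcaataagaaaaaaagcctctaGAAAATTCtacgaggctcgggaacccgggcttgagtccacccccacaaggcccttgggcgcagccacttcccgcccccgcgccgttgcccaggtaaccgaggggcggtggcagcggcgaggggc
Such a match stood in 10 of 24 start sites (41.7%) of the 18 list members with an entry, and in 12.8% of 32851 start sites of all genes. The windows of the other 2 of 3 Dnaja1 start sites, of Dnajb1 and of Cacybp held no match to these letters, and the sequence says nothing of what was bound in these cells.

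Each gate had few other changes. In the gamma-delta gate (Trdc present, Cd4 and Cd8b1 absent), 6 of 9319 genes passed (0.0644%), 1 higher (0.0107%) and 5 lower (0.0537%) in KO. Rab3ip, whose protein activates the small GTPase Rab8 in vesicle transport, measured 52.0, 62.3 and 66.9 CPM in KO and 131, 111 and 113 CPM in het. All KO samples were below all het samples (log2 -0.98, SE 0.13, edgeR adjusted p 0.0015), and WT averaged 91.8 CPM. Rab3ip also passed in every alternative tried, those without 1 library included. 4833420G17Rik (-0.73), Dnaja1 (-0.55), Gm156 (-1.39) and the receptor segment Trbv15 (-3.01) were the others lower in KO, and KO and het samples overlapped in the last 3. Trbv15 is a beta chain segment, and het sample 2 held 523 CPM of it in this gate, against 55.7 CPM in its CD8 alpha-beta gate. A gate set by a Trdc UMI does not show which receptor a cell carried, and this was not tested. Without library 2 only Rab3ip of the 6 genes remained called. The 1 gene higher was the hemoglobin gene Hbb-bs, at 193 CPM in KO sample 2 and at most 12.9 CPM in every other KO or het sample, and in all T cells of KO sample 2 the 3 cells with the most Hbb-bs held 97.9% of its UMI.

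In the CD8 alpha-beta gate (Cd8b1 present, Cd4 and Trdc absent), 9 of 9627 genes passed (0.0935%), 3 higher (0.0312%) and 6 lower (0.0623%) in KO. Granzyme A (Gzma), a protease of cytotoxic granules, measured 12393, 13038 and 15449 CPM in KO and 10964, 8023 and 9115 CPM in het. The groups did not overlap (log2 0.54, SE 0.10, edgeR adjusted p 0.0378), and WT averaged 13138 CPM. Scin, which encodes the actin-severing protein scinderin, measured 153, 180 and 159 CPM in KO and 112, 88.4 and 98.2 CPM in het (log2 0.72, SE 0.12, edgeR adjusted p 0.0376). Ube2c, the ubiquitin-conjugating enzyme of the anaphase-promoting complex, was the other gene higher in KO (log2 1.58, edgeR adjusted p 0.0396), which it missed without library 1 or library 2. Besides the 5 genes of the heat shock list, Ccdc117 was lower (log2 -0.77, edgeR adjusted p 0.0376). Of the 9 genes only Dnaja1 remained called without library 2, and only Hsph1 and Ube2c without library 3. Gzma was no longer called without library 2 (0.46, edgeR adjusted p 0.161) or library 3 (0.45, edgeR adjusted p 0.513), and Scin was not called without library 2 (0.56, edgeR adjusted p 0.216) or library 3 (0.74, edgeR adjusted p 0.0826).

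In the fit of all 3 libraries the KO effect on Gzma differed between the gates. In gamma-delta cells Gzma measured 22179 ± 2003 CPM in KO and 20617 ± 695 CPM in het (SD, n = 3), for a KO over het ratio of 0.10 in log2 (SE 0.07, edgeR adjusted p 0.897). The difference of the 2 effects, gamma-delta minus CD8 alpha-beta, was -0.44 (SE 0.07, edgeR adjusted p 0.0182), and it was 1 of 4 among 9870 genes (0.0405%). Lgals1, the gene of the carbohydrate-binding protein galectin-1, had a difference of 1.54 (SE 0.21, edgeR adjusted p 0.0024). In gamma-delta cells it measured 88.8 ± 35.5 CPM in KO and 28.1 ± 11.8 CPM in het, and in CD8 alpha-beta cells 106 ± 22.4 and 102 ± 48.7 CPM (SD, n = 3). The other 2 were the receptor segments Trbv19 (-3.89) and Trbv15 (-4.03). Whether each of the 4 differences would pass with 1 library left out was not examined.

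In the CD8 alpha-alpha gate (Cd8a present, Cd8b1, Cd4 and Trdc absent), 6 of 8882 genes passed (0.0676%), 2 higher (0.0225%) and 4 lower (0.045%) in KO. Dnaja1 was the only one that is not a receptor segment or a gene of another cell type. The mast cell protease gene Mcpt1 was higher (log2 4.03, edgeR adjusted p 0.0253), at 796 CPM in KO sample 2 and at most 19.5 CPM in every other KO or het sample. The hemoglobin genes Hba-a1 (-2.86) and Hbb-bs (-3.40) were lower, with overlapping samples, and Trbv19 (2.35) and Trbv13-3 (-1.80) completed the list.

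RNA of other cell types was present at low levels. The CPM values given next are shares of all UMI of a sample, without TMM factors. The 4 listed mast cell genes summed to 275 to 379 CPM in KO T cells and 66.8 to 193 CPM in het, so the groups did not overlap. Mcpt1 made up 232, 187 and 161 CPM of this sum in KO and 13.2, 99.5 and 15.5 CPM in het, and in KO samples 1, 2 and 3 the 3 cells with the most of it held 93.2%, 93.0% and 90.3% of its UMI. Over all T cells Mcpt1 stood at 2.32 in log2 (SE 0.44, edgeR adjusted p 0.149). Enterocyte genes summed to 295 to 530 CPM in KO and 330 to 631 in het, plasma cell genes to 82.1 to 235 and 65.7 to 136, and red cell genes to 13.7 to 783 and 52.1 to 282. Epcam and Cd79a were at 0 by the gate. The part of these cells in the other results was not tested, except where a run without cells holding background RNA is given.

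The CD4 gate (Cd4 present, Cd8b1 and Trdc absent) held the most differences, with cell cycle genes and several genes of resting T cells higher in KO. It held 123, 125 and 114 KO cells and 270, 622 and 40 het cells. The mix within the gate varied between samples, since 42, 65 and 66 of the KO cells and 164, 498 and 16 of the het cells held a Cd8a UMI. As shares of the gate these overlapped, with het sample 3 between KO samples 1 and 2. Of 7730 genes 61 passed (0.789%), 56 higher (0.724%) and 5 lower (0.0647%) in KO. Of 17 tested cell cycle genes 10 passed, all higher in KO, against 0.724% of all genes that passed as higher, and their median was 1.46 against 0.00 over all genes. The count was 6 of 17 without library 1, 2 of 15 without library 2, 10 of 18 without library 3, 5 of 17 with DESeq2 and 3 of 11 among cells passing the hashtag share. In all T cells 18 of 18 such genes had a log2 ratio above 0 with a median of 0.78, and none passed, 7 with an unadjusted p under 0.05. Without the 5% of T cells with the most UMI, 11 of 17 were above 0 and the median was 0.06. In gamma-delta, CD8 alpha-beta and CD8 alpha-alpha cells 14 of 16, 17 of 17 and 11 of 16 were above 0 (medians 0.36, 0.43 and 0.16). Only Ube2c passed there, in CD8 alpha-beta cells. In lamina propria T cells 14 of 14 were above 0 (median 0.61) and in colon T cells 7 of 18 (median -0.07). Epithelium cells outside the gate had 1 of 18 above 0 (median -0.34). None passed in these 3 sets.

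Ube2c measured 83.2, 100 and 129 CPM in KO CD4 cells and 20.6, 26.8 and 17.7 CPM in het (log2 1.99, SE 0.23, edgeR adjusted p 0.000326). Mki67, the proliferation marker Ki-67, measured 96.5, 154 and 159 CPM in KO and 33.5, 45.3 and 41.3 CPM in het (log2 1.70, SE 0.27, edgeR adjusted p 0.00395). Birc5, the gene of the mitotic protein survivin, measured 35.6, 53.5 and 72.9 CPM in KO and 10.7, 6.30 and 5.91 CPM in het (log2 2.66, SE 0.40, edgeR adjusted p 0.00318). In these genes all KO samples were above all het samples. Ube2c passed with any 1 library left out, while Mki67 missed the threshold without library 1 (1.74, edgeR adjusted p 0.0537) and Birc5 without library 2 (2.30, edgeR adjusted p 0.214). The others that passed were the cyclins Ccna2 (3.06), Ccnb1 (2.41) and Ccnb2 (2.28), Pclaf (2.08), the microtubule genes Stmn1 (1.90) and Tubb5 (0.81) and the topoisomerase gene Top2a (1.28). Outside the list, the histone genes Hist1h2ae (2.07), Hist1h1b (1.65), Hist1h1e (1.04), Hist1h2ab (1.74) and Hist1h4d (0.91), the spindle genes Cenpf (2.57) and Kif11 (2.11), and Cks1b (1.52) were also higher in KO.

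Cells were counted as cycling when they held at least 3 UMI of 15 cell cycle genes after each cell was thinned to 2000 UMI, a count chosen after the gene results were seen. In the CD4 gate 5 of 116, 6 of 124 and 10 of 113 KO cells met this, or 4.31%, 4.84% and 8.85%, and 10 of 265, 11 of 612 and 0 of 38 het cells, or 3.77%, 1.80% and 0%. The 0 of 38 allows a share of up to 7.89%. All KO shares were above all het shares (two-sided exact permutation p 0.1, the smallest that 3 against 3 can give, and 0.35 adjusted over 7 sets of cells). Without thinning the shares were 10.6%, 15.2% and 17.5% in KO and 14.8%, 12.4% and 5.0% in het, and they overlapped. Over all gated T cells the thinned shares were 2.15%, 2.89% and 3.90% in KO and 1.89%, 1.91% and 2.24% in het (exact permutation p 0.2). Cells with under 2000 UMI were left out, 1 to 7 in each KO and 2 to 10 in each het CD4 sample.

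Genes of other cells or of other receptors also moved in the CD4 gate. The immunoglobulin heavy chain gene Ighm measured 77.2, 30.0 and 18.7 CPM in KO and 8.37 to 11.8 CPM in het (log2 2.13, SE 0.41, edgeR adjusted p 0.0137). Pecam1, an adhesion gene of endothelial and some immune cells, was at 1.40 (edgeR adjusted p 0.0491) and the gamma chain constant gene Tcrg-C1 at 1.19 (edgeR adjusted p 0.0424). Of 28 tested receptor and immunoglobulin variable genes 4 passed, all higher in KO, against 0.724% of all genes in the gate that passed as higher. Among the 4 was the gamma chain segment Tcrg-V7 (1.92). The mast cell gene Mcpt1 (4.19, edgeR adjusted p 0.0715) was at 1954 CPM in KO sample 1 and at most 23.6 CPM in every other KO or het sample. Kit of the mast cell list (1.19, edgeR adjusted p 0.346) and Klrb1c of the NK cell list (1.61, edgeR adjusted p 0.544) did not pass, and samples of the groups overlapped in both. The part of such cells in the CD4 result was not tested.

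The CD4 result depended on which cells were counted. Among CD4 cells with a Cd8a UMI alone 115 genes passed, 90 higher and 25 lower, 13 of them cell cycle genes, but het library 3 held 16 such cells. That fit lacked the WT sums of libraries 1 and 2, at 9 such cells each. Its count is therefore not directly comparable with the 61 of the whole gate. Among CD4 cells without Cd8a none passed in edgeR, with 252 at an unadjusted p under 0.05. The hashtag share passed 80% in 69.9%, 76.0% and 47.4% of KO CD4 cells and in all het CD4 cells, and among passing cells alone 14 genes passed, 13 higher and 1 lower, among them Birc5 (2.44, edgeR adjusted p 0.0359) and not Ube2c (1.19, edgeR adjusted p 0.589), Mki67 (1.38, edgeR adjusted p 0.07) or Ccl4 (-1.02, edgeR adjusted p 0.268). Leaving out library 3 gave 126 genes, 104 higher and 22 lower, and leaving out library 1 or 2 gave 14 each, of which 11 and 6 were among the 61. Without cells holding a UMI of the 15 cell cycle genes 2 genes passed, and Ccl4 was one of them.

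**Figure D3:**
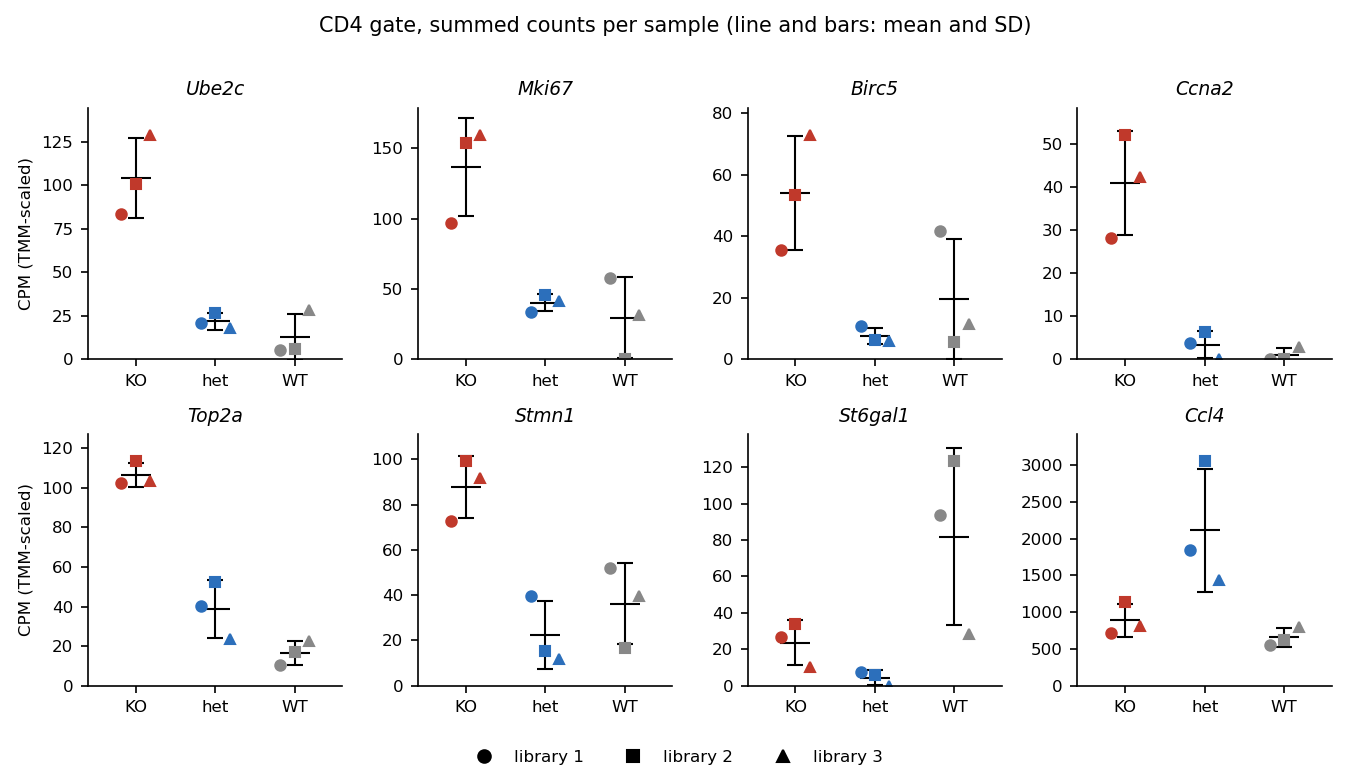
TMM-scaled CPM (vertical axis) of 8 genes in the CD4 gate of the epithelium for each genotype (horizontal axis), with symbols for the 3 libraries and lines and bars for the mean and SD. The 6 cell cycle genes and St6gal1 are higher in all 3 KO samples than in all 3 het samples, and Ccl4 is lower. WT samples of this gate held 34 to 77 cells.

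The chemokine gene Ccl4 was lower in KO CD4 cells. It measured 719, 1138 and 809 CPM in KO and 1848, 3056 and 1435 CPM in het (log2 -1.25, SE 0.17, edgeR adjusted p 0.00136), with WT at 655 CPM on average. The groups did not overlap, and the ratio was -1.49 (edgeR adjusted p 0.00612) without cells holding a cell cycle UMI and -1.19 (edgeR adjusted p 0.109) without library 1. In all T cells Ccl4 had -0.34 (SE 0.18, edgeR adjusted p 0.874). The other genes lower in the CD4 gate were 4833420G17Rik (-1.24), Dnajb1, Dnaja1 and Unc5cl (-1.10).

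Genes of resting and recirculating T cells were among those higher in KO CD4 cells. Of 10 tested members of that list 4 passed as higher, against 0.724% of all genes in the gate: the transcription factor genes Lef1 (1.38), Satb1 (1.34) and Bach2 (1.74) and the lymph node homing receptor gene Ccr7 (2.04). Of these 4 only Satb1 separated all KO from all het samples, at 183, 119 and 109 CPM against 58.62, 50.05 and 88.61 CPM (SE 0.24, edgeR adjusted p 0.00844), and WT averaged 288 CPM. The costimulatory receptor gene Icos was also higher (log2 1.01, SE 0.18, edgeR adjusted p 0.00844). Neither Icos nor any of these 4 was called without library 1 or without library 2, and with DESeq2 Icos alone of the 5 was called. The gate mixes cells with and without Cd8a in shares that varied between samples. None of the 5 was called among CD4 cells without Cd8a, and the part of the mix was not tested. No gene of the resting list passed in the other gates. There 2 of 6 tested genes had a log2 ratio above 0 in gamma-delta cells (median -0.42) and 0 of 10 in CD8 alpha-beta cells (median -0.41). In CD8 alpha-alpha cells 5 of 6 were above 0 (median 0.15), against 9 of 10 in the CD4 gate (median 1.36).

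Of the Th17 list 1 of 15 tested genes passed and of the Th1 list 0 of 18 in edgeR (5 with an unadjusted p under 0.05), against 0.789% of all genes in the gate. Il17a, the signature cytokine of Th17 cells, measured 1084, 423 and 159 CPM in KO CD4 cells and 205, 81.5 and 0 CPM in het (log2 2.29, SE 0.47, edgeR adjusted p 0.0247). It was higher in KO in 3 of 3 libraries, but KO sample 3 lay below het sample 1. Few cells carried it: over all gated T cells 20, 6 and 5 KO cells and 5, 8 and 1 het cells held a UMI, and in KO samples 2 and 3 the 3 cells with the most held 93.8% and 97.9% of the molecules. Il17a was not called without library 1 (2.32, edgeR adjusted p 0.151), without library 2 (2.27, edgeR adjusted p 0.493) or with DESeq2 (2.56, adjusted p 0.999). Areg, the gene of the growth factor amphiregulin, was also called (1.88), with overlapping samples.

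Among 16 sialyltransferase and sialic acid genes tested in the CD4 gate, 1 passed, against 0.789% of all genes in the gate. St6gal1, which adds sialic acid in alpha-2,6 linkage, measured 26.7, 33.9 and 10.2 CPM in KO and 7.61, 5.67 and 0 CPM in het (log2 2.32, SE 0.38, edgeR adjusted p 0.00525), with WT at 81.8 CPM on average. These values rest on 18, 26 and 6 UMI in KO and 10, 18 and 0 in het, and St6gal1 no longer passed when library 1 (2.65, edgeR adjusted p 0.0996) or library 2 (1.95, edgeR adjusted p 0.704) was left out. In all T cells 0 of 23 such genes passed, with 1 at an unadjusted p under 0.05 (St6gal1, log2 1.14, edgeR adjusted p 0.281). St8sia4, the polysialic acid synthase, measured 238, 256 and 253 CPM in KO and 247, 247 and 244 in het (log2 0.02, SE 0.07). St6galnac3 measured 257, 231 and 343 CPM in KO and 265, 336 and 291 in het (log2 -0.12, SE 0.11). Siglece, an inhibitory receptor for sialic acid, was at 4.37 to 5.63 CPM in KO and 4.42 to 5.69 in het.

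A pair of promoters is shown for cell cycle genes, since the cell cycle homology element has the letters TTTGAA. They are the 250 bases before the RefSeq start (GRCm38.p6) of Ube2c at chr2:164769679-164769928 on the plus strand and of Mki67 at chr7:135716380-135716629 on the minus strand. Capitals mark TTTGAA, or TTCAAA for the same letters on the opposite strand.
Ube2c: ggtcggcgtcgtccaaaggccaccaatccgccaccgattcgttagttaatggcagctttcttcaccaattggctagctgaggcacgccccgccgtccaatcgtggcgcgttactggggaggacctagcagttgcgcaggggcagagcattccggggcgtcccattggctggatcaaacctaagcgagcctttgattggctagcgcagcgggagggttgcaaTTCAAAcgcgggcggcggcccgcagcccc
Mki67: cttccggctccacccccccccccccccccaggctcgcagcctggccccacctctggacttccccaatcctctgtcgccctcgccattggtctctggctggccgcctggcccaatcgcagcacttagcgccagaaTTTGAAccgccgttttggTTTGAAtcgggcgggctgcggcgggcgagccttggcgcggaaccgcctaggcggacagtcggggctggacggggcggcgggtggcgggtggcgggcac
1 of these stood in 6 of 15 start sites of cell cycle genes (40.0%) and in 16.0% of all 32851 start sites. The window of Birc5 held none.

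The effector genes of intraepithelial T cells did not pass in the comparison over all T cells. In the lists of cytotoxic genes (15 tested), cytokine and chemokine ligands (19), Th1 genes (19), Th17 genes (18), residency and homing genes (18), inhibitory receptors (14) and interferon-stimulated genes (38), none passed, with 2, 5, 2, 5, 1, 1 and 3 at an unadjusted p under 0.05. Their medians lay between -0.065 and 0.1. Ifng, the gene of interferon gamma, measured 97.0, 97.2 and 86.5 CPM in KO and 106, 209 and 72.7 CPM in het (log2 -0.43, SE 0.25, edgeR adjusted p 0.882). Gzmb measured 3388, 3396 and 3264 CPM in KO and 3610, 3719 and 3077 in het (log2 -0.05, SE 0.08). The integrin alpha E gene Itgae measured 814, 939 and 920 CPM in KO and 865, 895 and 812 in het (log2 0.05, SE 0.07). For each of the 3 genes the groups overlapped. Gzma, without TMM factors, was at 16338 to 18470 CPM in KO and 14433 to 15861 CPM in het. Its groups did not overlap, though it did not pass over all T cells.

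Genes close to the threshold over all T cells, given as values, included the NAD kinase gene Nadk (log2 -0.74, edgeR adjusted p 0.0505), which measured 39.2, 38.3 and 37.1 CPM in KO and 69.9, 66.7 and 52.1 CPM in het. Nadk had log2 ratios of -0.83 in colon T cells, -0.58 in lamina propria T cells and -0.59 in epithelium cells outside the gate. Rsrp1 (-0.42, edgeR adjusted p 0.0557), the glucocorticoid-induced leucine zipper gene Tsc22d3 (-0.44, edgeR adjusted p 0.109), Xlr3b (2.63, edgeR adjusted p 0.109), Hspa4l (-0.47, edgeR adjusted p 0.109), Ube2c (1.38, edgeR adjusted p 0.124), S100a4 (2.61, edgeR adjusted p 0.145) and Tmem176a (1.14, edgeR adjusted p 0.251) made up the rest of the 20 smallest p-values with the genes above. In each gene named in this paragraph all KO samples lay on the same side of all het samples, while in Igkv1-88 of the 20 the groups overlapped. A choice by small p-value favours such genes, so this adds no support. The share of all genes tested that separate in this way was not counted.

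The mix of T cell subsets was compared after each cell was thinned to 2000 UMI, which left out 17 to 56 shallower cells per sample. CD8 alpha-beta cells made up 28.0%, 31.1% and 25.7% of KO T cells and 24.4%, 13.0% and 24.6% of het T cells. All KO shares were above all het shares, but the log2 ratio of 0.53 (SE 0.33) had an edgeR adjusted p of 0.589 and an exact permutation p of 0.1, the smallest that 3 against 3 can give. CD4 cells with Cd8a made up 2.05%, 3.86% and 4.53% of KO T cells and 8.68%, 17.0% and 1.64% of het T cells. The groups overlapped through library 3 (log2 -1.24, SE 0.80, edgeR adjusted p 0.589), and without that library the ratio was -2.11 (edgeR adjusted p 0.000767). Gamma-delta cells made up 20.0 ± 4.66% of KO and 18.2 ± 3.01% of het T cells, and CD8 alpha-alpha cells 30.6 ± 4.38% and 34.3 ± 3.64% (SD, n = 3), with edgeR adjusted p of 0.97 for both. A gate reads absent UMI as absent expression, so these shares describe detected molecules.

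**Figure D4:**
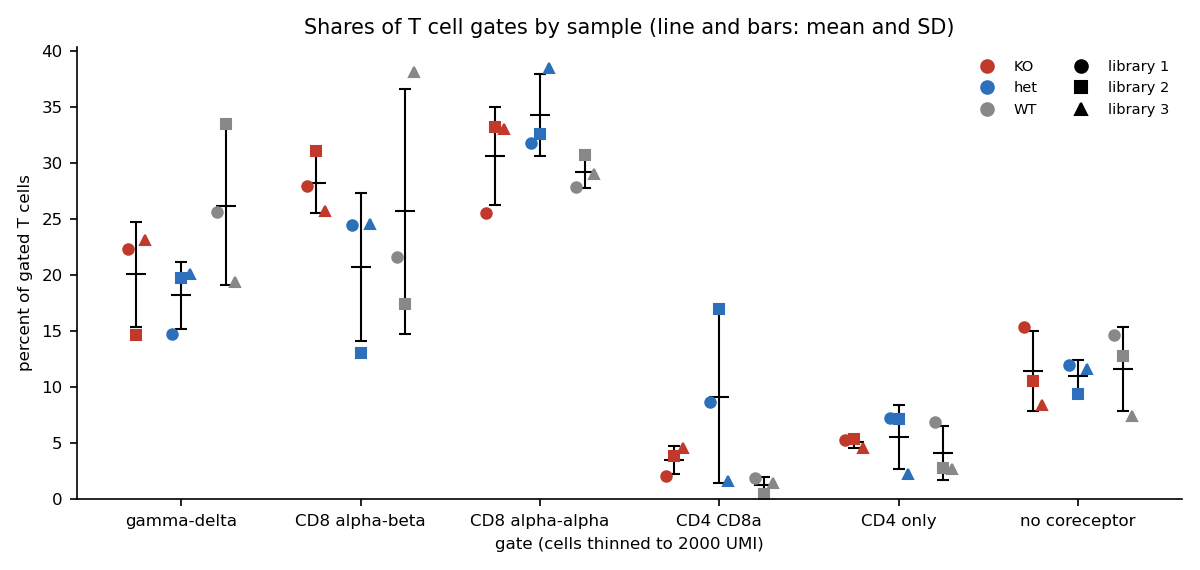
Percent of gated epithelial T cells in each gate (vertical axis) by gate (horizontal axis), after thinning to 2000 UMI per cell, with colours for the genotype, symbols for the library and lines and bars for the mean and SD. The CD4 and Cd8a share of het library 2 (17.0%) stands above all other samples, and no gate passed the test between KO and het.

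The KO effect was also compared between tissues. Of 11218 genes 2 (0.0178%) had an effect that differed among epithelial, lamina propria and colon T cells, both receptor segments, Igkv1-88 and Trbv13-2. In lamina propria T cells, at 104 to 310 cells per sample, 4 of 6973 genes passed between KO and het (0.0574%), and in colon T cells 1 of 10719 (0.00933%). 2 of these 5, Il17f (-0.77) and Ccl5 (0.13), could be tested in epithelial T cells, and neither passed there.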

How the data were processed

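Gene and hashtag counts of CD45-enriched epithelium cells, and T cells of lamina propria and colon, were read as deposited raw UMI counts, with deposited names of genes and barcodes. Per the submitters' processing notes, Cell Ranger, Seurat and mm10 were used, with versions not given in the sources used here. Per the labels, cells outside set limits of genes, molecules and mitochondrial share were removed, and no doublet caller was run here.

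UMI counts were summed per genotype and library (3 KO, 3 het and 3 WT sums) and tested with edgeR 4.0.16 (limma 3.58.1, R 4.3.3): filterByExpr, TMM, quasi-likelihood F test, library as block, Benjamini-Hochberg over all genes. Sums of under 10 cells were left out. KO and het deviations correlated within libraries 1, 2 and 3 at r of 0.502, 0.458 and 0.547 (2000 genes). DESeq2 1.42.0 was an alternative. The scripts were tested on simulated data. Shares of gates and cycling cells used cells thinned to 2000 UMI.

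Named genes were up to 15 per direction with the smallest p among called genes alike in 3 libraries, the 20 smallest p-values where under 10 were called, a set of fixed genes, and called members of 32 lists. Other named genes (Btaf1, Kif11, Il2ra, Lgals1, St8sia4, St6galnac3 and called genes below that rank) were chosen after their values were seen. Members and lists were chosen with earlier results of these data known. Library numbers come from barcode endings. Each KO or het sample is 1 mouse, and intervals on counts cover counting error only.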

Additional observations from a re-analysis of the deposited data

Results flagged for a closer look

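The KO effect differed between gates for 4 genes by a test of the difference itself, gamma-delta minus CD8 alpha-beta: Gzma (-0.44), Lgals1 (1.54) and the receptor segments Trbv19 (-3.89) and Trbv15 (-4.03). With library 3 left out 35 genes differed in this way. Among epithelium, lamina propria and colon the effect differed for Igkv1-88 (edgeR adjusted p 0.000166), which rests on 1 cell of KO sample 3, and for Trbv13-2 (edgeR adjusted p 0.0259), with log2 ratios of 0.78, 2.65 and -0.19 in the 3 tissues.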

How the results depend on the processing

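Over all T cells, against 8 genes called, DESeq2 called 15, edgeR without a filter on low counts 231 (134 higher, 97 lower), KO and het sums alone 17, the fit with no replicate block 1 (4833420G17Rik), and an equal mix of subsets 0 (594 at an unadjusted p under 0.05). Leaving out 1 library gave 3 to 7. With no replicate block the gamma-delta, CD8 alpha-beta and CD8 alpha-alpha gates had 1, 0 and 0 calls by edgeR (365, 393 and 328 at an unadjusted p under 0.05), against 6, 9 and 6, and the CD4 gate 41 against 61. Cells passing the hashtag share gave 12, 17, 3 and 14 in the 4 gates, DESeq2 gave 2, 1, 0 and 16, and leaving out 1 library gave 10 to 14, 5 to 18, 3 to 10 and 14 to 126. DESeq2 had 67 genes at an unadjusted p under 0.05 in the CD8 alpha-alpha gate. KO and het sums alone gave 30 in the CD8 alpha-beta gate. In the CD4 gate, CD4 and Cd8a cells alone gave 115, with the WT sum of library 3 only. CD4 cells without Cd8a gave 0 (252 at an unadjusted p under 0.05), and cells without a cell cycle UMI 2, where CAAA01147332.1 (-0.049) and Tuba1b (-0.25) turned sign. These cell choices, and DESeq2 and the KO and het sums in the gates, were chosen after seeing the data. The difference between gates gave 4 to 35 genes with 1 library left out. That between tissues gave 0 with no replicate block (452 at an unadjusted p under 0.05), 1 with the hashtag share and 1 to 2 with 1 library left out. For subset shares, leaving out 1 library moved the log2 ratio to between -2.11 and -0.47 for CD4 and Cd8a cells, -0.44 and 0.24 for CD4 cells without Cd8a, -0.26 and -0.10 for CD8 alpha-alpha, 0.14 and 0.72 for CD8 alpha-beta, -0.39 and 0.24 for conflicting, -0.070 and 0.39 for gamma-delta and -0.17 and 0.27 for cells with no coreceptor. Unthinned shares gave 0.0073 for CD8 alpha-alpha and -0.085 for no coreceptor, the hashtag share gave -0.16 for no coreceptor, and thinning to 1000 UMI gave 0.18 for conflicting cells. The cause was not tested for any of these. Where 1 library is left out, 2 mice per genotype remain, and het CD4 sample 3 held 40 cells.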
